A study of Mus musculus with 20 samples.

Results

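Egr1-Ier3-high B-MF were 3920 of the 10563 macrophages that BM B cells had given rise to in the conditioned medium of a breast cancer line, 4T1.2 (4T1.2-CM). They were chosen from their own transcripts: at least 15 corrected counts of Egr1 and Ier3 together, fewer than 3 of Mki67 and Top2a, fewer than 8 of Mcm5 and Mcm6, and fewer than 20 of the MHC class II genes H2-Aa, H2-Ab1 and H2-Eb1. The criteria on Mki67, Top2a, Mcm5, Mcm6 and MHC class II set aside dividing, DNA-replicating and MHC class II-high cells, and the 5694 B-MF cells that met them with Egr1 and Ier3 below 15 were the cells compared, always within the same library. Replicate 1 held 2015 members and 2735 other cells, and replicate 2 held 1905 members and 2959 other cells. All genes of these cells came from the same counts as the rule, so the differences between members and other cells are given as measured in each library, with no test.

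The scRNA-seq data comprised 2 libraries of B-MF, 2 libraries of Mo-MF, the macrophages made from monocytes in the same medium, and 4 libraries of TAM sorted from 4T1.2 tumors of BALB/c mice, 31683 cells in all. B-MF arose from sorted BM B cells of young female mice kept in 4T1.2-CM for a week, and the adherent cells were taken. For scRNA-seq, the methods state that sort-purified cells were loaded. No transgene or further agent is named for these cultures. The methods name C57BL/CJ and BALB/CJ mice for such cultures and do not say which strain gave these libraries. In addition, 12 ATAC-seq libraries described open chromatin in the B-cell precursors (BMBP) of untreated mice, 3 each from CSF1R+ and CSF1R- cells of BM and spleen; the labels call these cells macrophages, whereas the paper calls them BMBP. The TAM libraries came from different mice, as the study describes them. For the cultures, no source used here says that replicates were separate cultures or animals, so that their p-values measure the spread between these libraries, which may be technical.

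Egr1 and Ier3 are immediate-early genes. Their transcription starts within minutes of a signal through growth factor receptors, such as the M-CSF receptor CSF1R, or through stress and inflammatory receptors, without the need for newly made protein, and their mRNAs decay quickly. Egr1 encodes a zinc-finger transcription factor, and Ier3 encodes a small protein linked to cell survival, MAP kinase and NF-kB signaling. In macrophages, this early wave is followed by cytokines, chemokines and their feedback inhibitors, while genes of lipid uptake and matrix breakdown mark other macrophage programs.

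Members made up 42.4% of the cells meeting the other criteria in B-MF replicate 1 (95% exact Clopper-Pearson interval 41.0 to 43.8) and 39.2% in replicate 2 (37.8 to 40.6); the intervals cover counting error only. Median Egr1 was 12 corrected counts in members of both libraries and 3 in the other cells, and median Ier3 was 12 and 11 in members and 2 in the other cells. The sum of both genes ran from 15 to 111 in members of replicate 1 and from 15 to 91 in replicate 2. The values formed a continuum across the threshold. Just below it, 148 and 168 cells had a sum of 14, with mean Egr1 of 7.73 and 7.79. Just inside it, 130 and 158 cells had a sum of 15, with mean Egr1 of 9.14 and 7.97. Members are therefore the upper range of a graded sum of 2 genes. Whether they form a cluster by their other genes was not tested.

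The cells set aside by the other criteria differed in how often they reached the same sum. Of the MHC class II-high cells, 64.0% of 139 in replicate 1 (exact interval 55.5 to 72.0) and 67.3% of 101 in replicate 2 (57.3 to 76.3) had at least 15 counts of Egr1 and Ier3. Of the cells with Mki67 and Top2a of 3 or more, 21.1% of 337 and 21.8% of 353 did. Of the cells with Mcm5 and Mcm6 of 8 or more, 13.5% of 104 and 12.5% of 64 did. Both libraries thus gave the same order, with dividing and replicating cells below the 42.4% and 39.2% of the cells compared and MHC class II-high cells above.

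On average, members had the transcripts of macrophages. The macrophage gate defined below for Mo-MF kept 1813 of 2015 and 1709 of 1905 members in replicates 1 and 2. It kept 2564 of 2735 and 2769 of 2959 other cells, a larger share. The defining genes were present: Csf1r averaged 13.8 and 13.7 corrected counts per cell in members of replicates 1 and 2 (9.34 and 9.37 in the other cells), Adgre1, which encodes F4/80, averaged 7.34 and 7.15 (6.44 in both), and Cd68 averaged 33.6 and 34.2 (38.5 and 38.6). The summed mean of 19 macrophage identity genes was 1045 and 992 in members and 841 and 818 in the other cells. All 5 monocyte genes were below 0.1 in both sets of cells, and so were 9 and 11 of 12 neutrophil genes, with a summed mean of 1.44 and 0.887 in members against 0.904 and 0.649 in the other cells. Of 16 B-cell genes, Cd72, Blnk and Ighm passed the filter. The signal inhibitor Cd72 averaged 2.23 and 2.09 in members and 3.33 and 3.13 in the other cells.

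Members had slightly fewer detected genes than the other cells, with medians of 3689 against 3921 in replicate 1 and 3191 against 3466 in replicate 2. Median corrected totals were 18579 against 19553 and 18197 against 18456, and the median share of mitochondrial transcripts was 6.93% against 6.94% and 7.12% against 7.09%. The upper tails differed despite these medians. Cells over 15% mitochondrial transcripts were 80 of 2015 members and 244 of 2735 other cells in replicate 1. In replicate 2 they were 56 of 1905 members and 155 of 2959 other cells, a larger share of the other cells in both libraries. As SCTransform evens out depth between cells, corrected totals are not sequencing depths, and the part of detected genes in the differences below was not tested. The B-MF libraries shared 4 cell barcodes with each other and 5 to 9 with each Mo-MF library.

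Of 8358 genes with a mean of at least 0.1 corrected counts per cell, Egr1 and Ier3 aside, 16 (0.191%) were higher in members by at least 1 on the log2(mean + 0.1) scale in both libraries, and 15 (0.179%) were lower by as much. This scale understates differences of low genes, and with 0.5 in place of 0.1 the rule found 5 and 6 genes. The 16 higher genes were Ifitm1, Jaml, Saa3, Tmem176a, Tmem176b, Il1b, Nrg1, Egr3, Cxcl2, Cxcl5, Plbd1, Btg2, Clmp, Trib1, Pla2g7 and Nfkbiz. The 15 lower genes were Mmp12, Lpl, Npy, Cd36, Bex1, Fabp4, Kcnn4, Serpinb6b, Itgax, Flrt2, Spp1, Ccnd1, Atp6v0d2, Mgll and Pcdh7. Over all 8358 genes, 3006 (36%) were higher and 3976 (47.6%) lower in members of both libraries by any amount, the shares beside which the list counts below stand. Since the contrast is the one that the rule used, these counts describe the members and are no evidence about them.

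**Figure D1:**
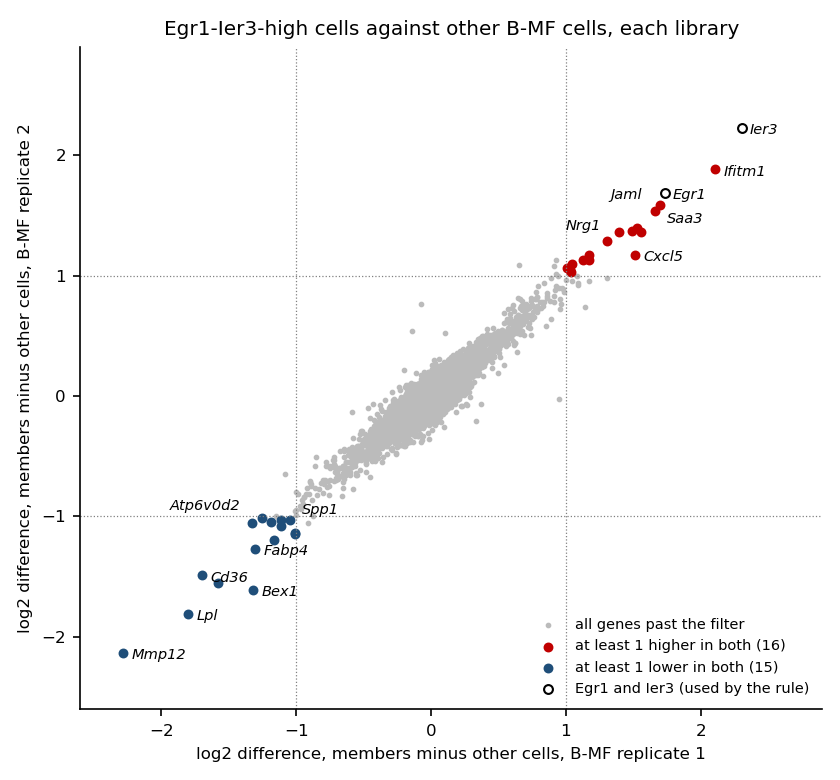
Log2 difference between Egr1-Ier3-high cells and the other B-MF cells in replicate 1 (horizontal axis) and replicate 2 (vertical axis), each point 1 gene; red points are the 16 genes at least 1 higher and blue points the 15 genes at least 1 lower in both libraries (dotted lines), and open circles are Egr1 and Ier3, which the rule used. Genes lie along the diagonal, from Mmp12 at -2.28 and -2.13 to Ifitm1 at 2.11 and 1.88.

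Most of the other immediate-early genes listed were higher in members. Of 17 AP-1 and other immediate-early genes past the filter, 13 were higher in both libraries and 3 lower in both, with a median log2 difference of 0.55 and 0.49 against -0.02 in both libraries over all genes. The difference was at least 0.5 in both libraries for 8 of them, beside 166 (1.99%) of all genes, and 1, Btg2, met the fold rule. Btg2, an antiproliferative early gene, averaged 7.88 and 7.0 corrected counts per cell in members and 3.44 and 3.14 in the other cells, log2 differences of 1.17 and 1.13. Ier2 averaged 9.09 and 8.03 in members and 4.21 and 4.18 in the other cells (1.09 and 0.93). Zfp36, whose product destabilizes cytokine mRNAs, averaged 11.7 and 11.3 against 6.92 and 7.06 (0.75 and 0.67). The AP-1 subunit genes were not alike: Fos averaged 24.7 and 23.9 in members against 15.6 and 15.9, Junb 20.6 and 18.6 against 12.2 and 11.9, and Jun 4.05 and 4.30 against 3.61 in both.

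Of 15 Egr, Nr4a and Klf genes past the filter, 9 were higher and 4 lower in both libraries, with a median of 0.27 and 0.24. Egr3 averaged 1.05 and 0.925 corrected counts in members and 0.367 and 0.319 in the other cells (log2 differences 1.30 and 1.29). Nr4a1, an orphan nuclear receptor of the early response, averaged 1.85 and 1.70 in members and 1.01 and 0.948 in the other cells (0.81 and 0.78). Id1, an inhibitor of HLH transcription factors, went the other way, at 0.161 in members of both libraries and 0.279 and 0.262 in the other cells. Feedback genes of the MAP kinase pathway showed no common direction, with a median of 0.05 and -0.04 over 10 genes: the phosphatase gene Dusp5 was higher (1.16 and 0.986 against 0.700 and 0.659) and its relative Dusp4 lower (0.0784 and 0.0745 against 0.179 and 0.139). Dusp4 was under 0.1 in members and passed the filter only through the other cells, so it had to be lower in members. Among 14 NF-kB feedback genes, 10 were higher and 2 lower in both libraries, led by Nfkbiz, a nuclear cofactor of NF-kB, at 0.584 and 0.541 in members against 0.240 and 0.206.

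The CXC chemokine genes had the highest median of the lists of secreted factors. Of 7 CXC chemokine genes past the filter, 6 were higher in both libraries, with a median log2 difference of 0.73 and 0.75. Pf4, a chemokine also stored in platelets, was the most abundant of them, at 189 and 185 corrected counts per cell in members against 111 in the other cells of both libraries (0.77 and 0.73). Platelet genes other than chemokines were not seen to accompany it, though only 3 of 5 megakaryocyte and platelet genes had values in the cultured cells. Ppbp, itself a chemokine, was the one of them to pass the filter. Cxcl2, which recruits neutrophils, averaged 3.58 and 2.84 in members and 1.53 and 1.20 in the other cells (1.18 and 1.17). Cxcl5, with the same receptor, was rare, at 0.627 and 0.416 against 0.155 and 0.129 (1.51 and 1.17). Cxcl14 was the exception of the family, at 0.750 and 0.711 in members against 1.48 and 1.23. Of 10 CC chemokine genes, 7 were higher in both libraries, among them Ccl12, which recruits monocytes, at 2.97 and 2.85 against 1.5 and 1.38.

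Nrg1, an EGF-family ligand of ErbB receptors, averaged 1.16 and 0.990 corrected counts per cell in members and 0.379 and 0.325 in the other cells, log2 differences of 1.40 and 1.36. Osm, a cytokine of the IL-6 family, averaged 2.15 and 1.77 against 0.899 and 0.860 (1.17 and 0.96), and Vegfa, which drives vessel growth, averaged 1.53 and 1.33 against 0.862 and 0.778. The growth factor Igf1 was lower in members, at 9.17 and 9.04 against 11.4 and 11.6. Over 10 growth factor genes, 6 were higher and 4 lower in both libraries. Il1b, which encodes the inflammatory cytokine IL-1 beta, averaged 2.14 and 1.74 in members and 0.700 and 0.610 in the other cells (1.49 and 1.37), whereas Tnf was low in all, at 0.229 and 0.190 against 0.179 and 0.132.

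Outside the lists, the largest positive difference was that of Ifitm1, an interferon-induced membrane protein gene, at 3.91 and 3.21 corrected counts per cell in members against 0.830 and 0.796 (log2 differences 2.11 and 1.88). The interferon-stimulated genes as a list had a median near that of all genes, -0.02 and 0.08. Saa3, an acute-phase protein gene that macrophages express, averaged 9.06 and 7.44 against 2.8 and 2.5 (1.66 and 1.54). Jaml, an adhesion molecule, averaged 1.55 and 1.40 against 0.410 and 0.400. Complement genes were among the macrophage identity genes with the largest differences: C1qa averaged 30.8 and 28.3 in members and 14.8 and 14.6 in the other cells (1.05 and 0.95), and C1qb and C1qc were higher by 0.76 and 0.75 and by 0.83 and 0.78. In all, 16 of 19 macrophage identity genes were higher and 3 lower in both libraries, Cd68 among the lower ones.

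The genes furthest below the other cells included Mmp12, Lpl, Cd36 and Fabp4. Mmp12, the macrophage elastase, averaged 5.28 and 5.64 corrected counts per cell in members and 26.1 and 25.1 in the other cells, the largest negative log2 difference of all (-2.28 and -2.13). Lpl, which frees fatty acids from lipoproteins, averaged 7.10 and 6.93 against 25 and 24.5 (-1.80 and -1.81). The fatty acid receptor gene Cd36 averaged 1.85 and 2.20 against 6.23 and 6.35 (-1.70 and -1.49), and Fabp4, a fatty acid carrier, 3.36 and 3.32 against 8.43 and 8.13. These genes did not represent their whole groups. Of 12 lipid handling genes, 8 were lower and 3 higher in both libraries. The cholesterol exporter gene Abca1 averaged 2.53 and 2.45 in members against 1.65 and 1.52, and Pltp, a phospholipid transfer protein gene, 18.6 and 18.3 against 12.5 and 12.3.

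Spp1, which encodes the secreted protein osteopontin, averaged 53.7 and 52.4 corrected counts per cell in members and 111 and 107 in the other cells (-1.05 and -1.03). Ccnd1, the gene of the G1 cyclin D1, averaged 1.28 and 1.26 against 2.89 and 2.68. Cell-cycle phase markers had been part of the rule, and Ccnd1 had not. Of 11 genes of matrix proteases and their inhibitors, 6 were lower and 4 higher in both libraries, with a median of -0.34 and -0.03, and Mmp12 alone met the fold rule. The proteases Plau (1.93 and 2.13 against 3.65 and 3.63) and Adam8 (3.39 and 3.68 against 5.78 and 5.63) were lower, whereas Mmp9 (0.451 and 0.389 against 0.247 and 0.223) and Mmp8 (4.44 and 4.52 against 3.32 and 3.33) were higher. The tetraspanin gene Cd9 averaged 3.35 and 3.42 against 7.54 and 6.89, just outside the fold rule in replicate 2 (-0.99).

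Antioxidant and cholesterol synthesis genes were mostly lower, by smaller amounts. Of 11 antioxidant genes, 10 were lower in both libraries, with a median of -0.35 and -0.30; Prdx1, a peroxide-reducing enzyme gene, averaged 22.9 and 24.8 corrected counts in members against 41.3 and 43.9. Of 16 cholesterol synthesis genes, 14 were lower and none higher in both libraries, with a median of -0.15 and -0.16 and no gene past the fold rule. Of 14 glycolysis and hypoxia genes, 10 were lower and 4 higher in both libraries, with a median of -0.24 and -0.30. Hif1a, the hypoxia-inducible transcription factor gene, was among the higher ones, at 2.34 and 2.25 against 1.33 in both libraries, while the glycolytic enzyme gene Pgk1 averaged 3.44 and 3.50 against 4.81 and 4.82. The ferritin genes were lower as well, with Ftl1 at 447 and 438 against 558 and 552. Slc40a1, the iron exporter gene, differed by only 0.08 in both libraries.

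**Figure D2:**
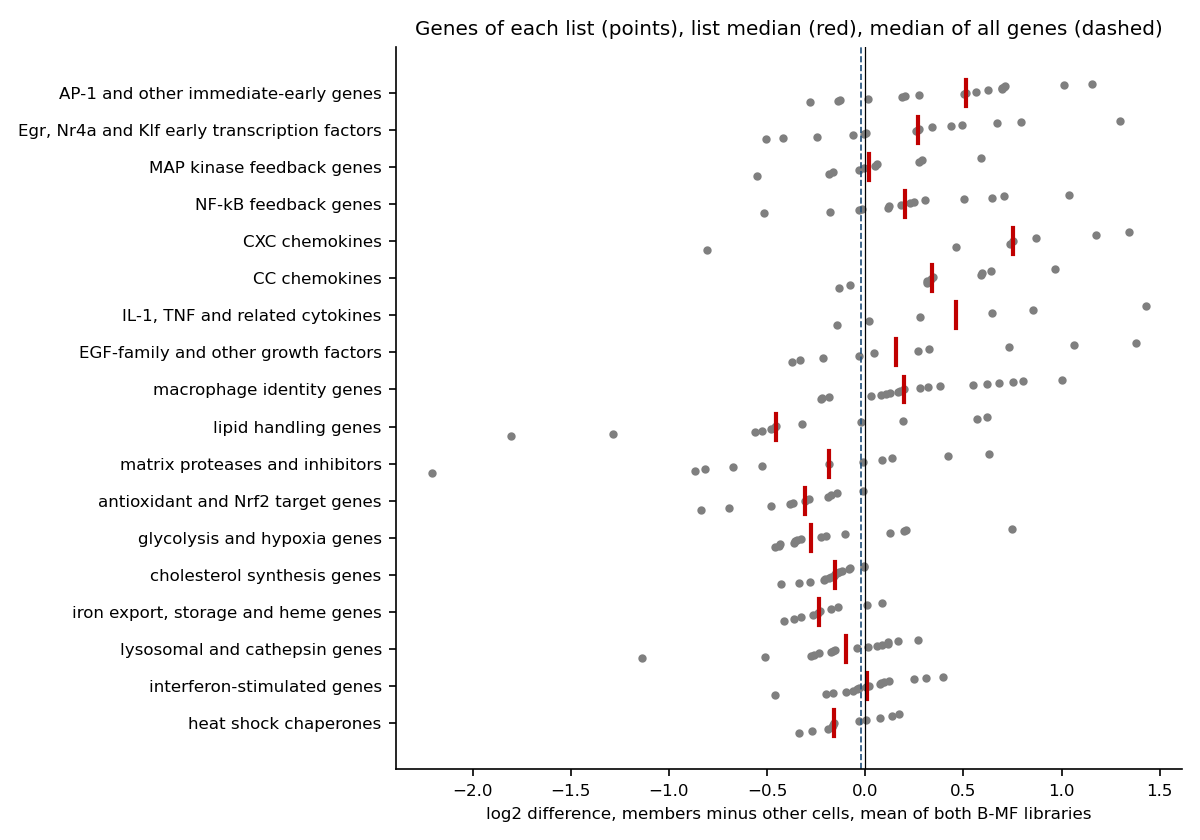
Log2 difference between Egr1-Ier3-high cells and the other B-MF cells (horizontal axis, mean of both libraries) for each gene past the filter (grey points, offset vertically so that they can be told apart), by gene list; red bars are list medians and the dashed line is the median of all 8358 genes. CXC chemokines and AP-1 genes lie mostly to the right, and antioxidant and cholesterol synthesis genes mostly to the left, with Mmp12 and Lpl as the outermost genes on the left.

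These differences were graded. The cells of each library were placed in bins of Egr1 plus Ier3 of 0 to 4, 5 to 9, 10 to 14, 15 to 29, 30 to 59 and 60 or more, which held 966, 949, 820, 1385, 567 and 63 cells in replicate 1 and 1025, 1100, 834, 1354, 509 and 42 cells in replicate 2. From bin to bin, all 16 higher genes increased without exception in both libraries, and 13 of the 15 lower genes in replicate 1 and all 15 in replicate 2 decreased. Mmp12 went from 42.4 corrected counts per cell in the lowest bin to 1.97 in the highest in replicate 1 and from 37.1 to 1.5 in replicate 2. Spp1 went from 156 to 23.3 and from 149 to 18.2, and Pf4 from 92.7 to 252.5 and from 89.8 to 257. Nrg1 went from 0.149 to 2.89 and from 0.172 to 2.0. Below the threshold the same order was already present, since Lpl averaged 38.2, 20.6 and 14.6 in the first bins of replicate 1. Slc40a1 stayed between 3.79 and 4.81 in all bins of both libraries. The order follows in part from how the genes were chosen, as a difference across the threshold was required of them.

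**Figure D3:**
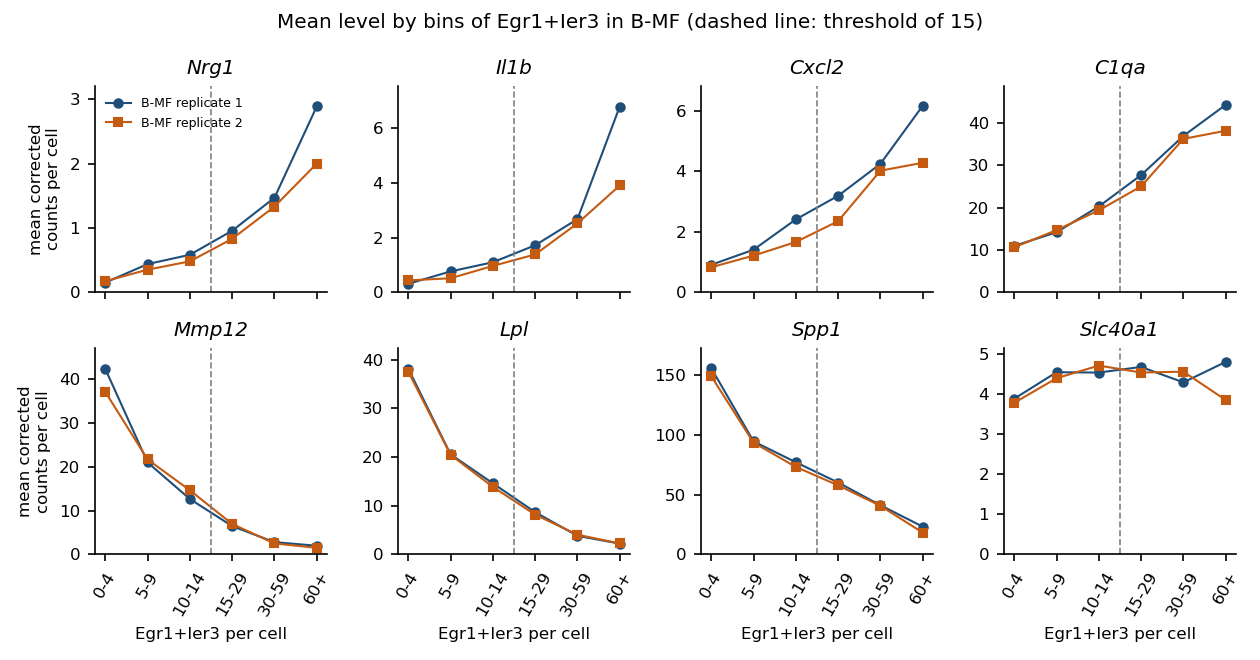
Mean corrected counts per cell (vertical axes, starting at 0) in bins of Egr1 plus Ier3 per cell (horizontal axes), for 8 genes in B-MF replicate 1 (circles) and replicate 2 (squares); the dashed line is the threshold of 15. Nrg1, Il1b, Cxcl2 and C1qa increase from left to right in both libraries, Mmp12, Lpl and Spp1 decrease, and Slc40a1 stays between 3.79 and 4.81.

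Members were also divided by which gene had reached 15 on its own. In replicate 1, 416 cells had done so by Egr1 only, 536 by Ier3 only, 266 by both and 797 by neither alone, and in replicate 2 these were 403, 469, 208 and 825 cells. In each of the 4 sets and both libraries, all 16 higher genes were above and all 15 lower genes below the other B-MF cells. Since these genes were chosen for the same difference and the sets were cut from the counts of the rule, this restates the choice in large part. Mean Egr1 plus Ier3 differed between the sets as well, at 26.1 and 25.5 corrected counts in replicates 1 and 2 with Egr1 only, 31.6 and 32.1 with Ier3 only, 48.0 and 45.6 with both, and 18.7 and 18.6 with neither. The median log2 difference of the 16 higher genes was 1.21 and 1.05 in cells with Egr1 only, 1.51 and 1.57 with Ier3 only, 1.96 and 1.99 with both, and 1.02 and 0.90 with neither, the order of the mean sums. Cells with Ier3 only were above those with Egr1 only in 13 and 15 of the 16 genes; for Cxcl2, they averaged 4.81 and 4.13 corrected counts against 2.85 and 1.94. Of the 15 lower genes, 2 and 3 were higher with Ier3 only, so that the rest lay further down in these cells, such as Mmp12 at 3.39 and 2.82 against 5.21 and 5.96. The sets were not matched for the sum, and its part in these differences was not tested. No share over all genes was computed to stand beside these counts.

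Promoter sequence is shown for Ier3, which defines the cells together with Egr1 (not shown), and for 5 genes that stood out among the results above, to place the letters bound by the factors of the early response beside them. The windows hold the 250 bases before the gene start in RefSeq (GRCm38.p6), 5′ to 3′ on the strand of the gene, and capitals mark each match to 1 of 7 motifs searched on both strands: AP-1 (TGANTCA), CRE (TGACGTCA), the short CRE core (TGACG, which lies within the CRE), EGR (GCGNGGGCG), C/EBP (TTGCNNAA), NF-kB and the CArG box. Of 32851 mouse promoter windows of that length, 6.75% held AP-1, 1.55% the CRE, 17.8% the core, 4.7% EGR, 9.56% C/EBP, 3.9% NF-kB and 1.47% the CArG box. Ier3 held an NF-kB match at positions -92 to -83 from the start, in chr17:35821463-35821712 on the plus strand.
Ier3: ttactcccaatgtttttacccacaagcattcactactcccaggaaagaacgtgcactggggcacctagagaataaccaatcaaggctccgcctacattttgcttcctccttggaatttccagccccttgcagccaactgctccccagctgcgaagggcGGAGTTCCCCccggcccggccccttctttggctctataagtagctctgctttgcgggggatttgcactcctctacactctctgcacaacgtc
Nr4a1 (chr15:101266596-101266845, plus strand) held 4 CRE cores on the opposite strand and an EGR match at -60 to -52.
Nr4a1: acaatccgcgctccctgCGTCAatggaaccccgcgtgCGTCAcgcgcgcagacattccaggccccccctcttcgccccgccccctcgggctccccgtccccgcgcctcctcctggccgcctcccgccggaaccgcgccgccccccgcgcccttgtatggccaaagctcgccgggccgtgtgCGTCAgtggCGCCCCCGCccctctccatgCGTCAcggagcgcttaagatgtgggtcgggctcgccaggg
Btg2 (chr1:134079156-134079405, minus strand) held a full CRE and an EGR match.
Btg2: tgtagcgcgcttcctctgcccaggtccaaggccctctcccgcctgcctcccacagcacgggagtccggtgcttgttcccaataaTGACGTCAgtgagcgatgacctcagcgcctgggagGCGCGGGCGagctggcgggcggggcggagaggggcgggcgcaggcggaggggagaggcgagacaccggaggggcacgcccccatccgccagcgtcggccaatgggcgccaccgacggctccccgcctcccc
Cxcl2 (chr5:90903649-90903898, plus strand) held overlapping NF-kB matches at -97 to -87.
Cxcl2: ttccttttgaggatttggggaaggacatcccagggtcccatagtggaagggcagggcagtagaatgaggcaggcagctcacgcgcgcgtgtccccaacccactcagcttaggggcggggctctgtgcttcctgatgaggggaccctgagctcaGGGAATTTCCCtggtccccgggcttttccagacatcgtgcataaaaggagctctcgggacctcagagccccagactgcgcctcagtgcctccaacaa
Saa3 (chr7:46715677-46715926, minus strand) held a C/EBP match at -99 to -92.
Saa3: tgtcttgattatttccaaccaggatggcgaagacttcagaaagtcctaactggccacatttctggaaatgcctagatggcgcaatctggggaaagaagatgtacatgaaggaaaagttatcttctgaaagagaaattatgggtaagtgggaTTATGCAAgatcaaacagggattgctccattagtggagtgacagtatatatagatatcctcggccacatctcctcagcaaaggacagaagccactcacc
Mmp12, the gene with the largest negative difference, has a pair of starts. The first window (chr9:7344147-7344396, plus strand) held a C/EBP match at -39 to -32 and no AP-1 match, and lies by the GENCODE start used for the peaks described next.
Mmp12, first start: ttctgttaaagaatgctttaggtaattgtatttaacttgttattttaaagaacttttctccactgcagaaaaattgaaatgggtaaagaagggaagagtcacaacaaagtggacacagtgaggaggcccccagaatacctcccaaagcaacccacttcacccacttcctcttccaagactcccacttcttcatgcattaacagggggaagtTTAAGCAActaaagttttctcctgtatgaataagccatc
The second window (chr9:7347124-7347373, plus strand) held an AP-1 match at -44 to -38.
Mmp12, second start: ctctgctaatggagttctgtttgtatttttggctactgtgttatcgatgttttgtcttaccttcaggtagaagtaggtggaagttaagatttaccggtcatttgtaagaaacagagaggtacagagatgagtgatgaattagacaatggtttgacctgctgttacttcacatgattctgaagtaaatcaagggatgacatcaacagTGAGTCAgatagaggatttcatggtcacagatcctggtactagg
A match describes the letters of a window and is neither a bound site nor a cause of a difference. These genes were picked for display because such a match was found, so they do not show how often it occurs among genes that differ.

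The ATAC-seq peak lists showed which gene starts were open in B-cell precursors taken directly from mice. For each gene, peaks overlapping by at least 1 base the window from 250 bases before to 50 after the annotated start (GENCODE, GRCm38) were counted over the 12 libraries. Of 8293 genes with a window, 79.2% had a peak in all 12 libraries. Of the 16 genes higher in members, 5 (31.2%) had a peak in all 12, 6 in some and 5 in none, and of the 15 lower genes 3 (20%) had a peak in all, 4 in some and 8 in none. The sets were not matched for expression, and no test was made. At Ier3 (chr17:35821434-35821733), all 6 BM libraries had a peak, with fold enrichments of 4.06 to 6.06, and no spleen library had one. Peaks at Egr1, the other gene of the sum, are not reported here. Cxcl2 (chr5:90903621-90903920) gave the same pattern, with fold enrichments of 8.85 to 15.5 in the 6 BM libraries. Btg2 had a peak in all 12 libraries (8.29 to 13.8), Lpl in 5 of the BM libraries (3.93 to 7.16), Il1b in 2, and Nrg1, Cxcl5, Pf4, Saa3 and Cd36 in none. The lists hold no read counts and the depth of each library is unknown, so a missing peak may be one that was not called at that depth.

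Mo-MF were then divided by the same criteria, together with a gate for macrophages (Csf1r, Adgre1 and Mrc1 summing to at least 3 corrected counts, and the neutrophil genes Csf3r, Retnlg and Cxcr2 to fewer than 3). Only 49 of 3010 gated Mo-MF in replicate 1 (1.63%, exact interval 1.21 to 2.15) and 60 of 3420 in replicate 2 (1.75%, 1.34 to 2.25) had Egr1 and Ier3 of 15 or more. With the same gate, the share of B-MF was 41.4% and 38.2%. Without the gate, 265 of 4452 Mo-MF in replicate 1 (5.95%) and 274 of 4956 in replicate 2 (5.53%) reached the same sum. The shares of the cultures did not overlap, and as this measure had chosen the cells, no test was made. The Mo-MF cells above the threshold carried markers of other cells: the 5 monocyte genes summed to 28.3 and 18.9 in them against 1.02 and 1.08 in the other Mo-MF, and 12 neutrophil genes to 22.7 and 18.6 against 2.73 and 3.01. The part of these markers in the Mo-MF differences was not tested.

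In Mo-MF, 106 genes (1.27%) were higher and 53 (0.634%) lower by the fold rule in both libraries. Of the 16 genes higher in B-MF members, 13 were among these 106, and of the 15 lower genes, 11 were among the 53. Nrg1 averaged 1.31 and 1.05 corrected counts in Mo-MF above the threshold and 0.142 and 0.118 in the others, log2 differences of 2.54 and 2.40. Il1b averaged 8.51 and 4.48 against 0.0767 and 0.0857 (5.61 and 4.62), and Saa3 102 and 59.9 against 2.82 and 3.04. Lpl averaged 1.84 and 1.30 against 12.6 and 13.3 (-2.71 and -3.26), and Mmp12 3.78 and 3.4 against 26.9 and 28.5. The differences in Mo-MF were thus mostly larger than those in B-MF, from a small number of cells.

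Whether a difference was particular to B-MF was tested by limma on the differences within each library, B-MF minus Mo-MF, over 8504 genes. For this test the macrophage gate was applied to B-MF as well, so its values depart slightly from those of the ungated B-MF cells given above. At a Benjamini-Hochberg adjusted p of 0.05, the number of genes with a larger difference in B-MF was 0 (0%) and the number with a smaller one was 0 (0%); at an unadjusted p of 0.05 there were 821 and 710. Without B-MF replicate 1 or 2 the test called 15 or 8 smaller differences, without Mo-MF replicate 1 it called 2317 larger and 1983 smaller ones and without Mo-MF replicate 2 it called 2888 and 2489. Each of these fits assumes that the lone library left in one culture varies like the pair of the other. The genes of smallest p were Plac8, a monocyte gene (B-MF minus Mo-MF log2 difference -3.78, standard error 0.16, adjusted p = 0.055), Clec4e (-2.45, adjusted p = 0.055), Tgfbi (-2.37, adjusted p = 0.055) and Ptgs2, the inducible cyclooxygenase (-1.95, adjusted p = 0.055). Plac8 was under 0.1 in B-MF on both sides of the threshold and passed the filter through Mo-MF. Its value therefore describes the split of Mo-MF and says little about B-MF. Nrg1 differed by -1.05 (standard error 0.11, limma adjusted p = 0.102) and Il1b by -3.65 (standard error 0.35, adjusted p = 0.102). On the other side, Rcan1, an inhibitor of calcineurin, was higher above the threshold by 0.46 in both B-MF libraries and had differences of -0.75 and -0.69 in Mo-MF (1.17, limma adjusted p = 0.093), whereas Arg1 and Pdpn (1.46 and 1.23, limma adjusted p = 0.093 for both) were lower above the threshold in both cultures, and less so in B-MF.

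The TAM libraries, which the rule had not used, allowed a test of the same criteria in cells from tumors. They are numbered 2 to 5 in the table and could not be matched one by one to the samples of the labels, which are numbered from 1. In libraries 2 to 5, 2335, 1969, 1763 and 2359 cells met the other criteria, and the gate left out most of them. After the gate, 532, 173, 238 and 253 cells remained, of which 162, 36, 73 and 64 had Egr1 and Ier3 of 15 or more (30.5%, 20.8%, 30.7% and 25.3%). The TAM and culture tables had been normalized separately, so a threshold of 15 is not the same level in both, and differences between B-MF and TAM were not tested. Ier3 set this division more than Egr1 did. Mean Ier3 was 22.9, 22.4, 18.5 and 21.6 corrected counts above the threshold in libraries 2 to 5 and 4.56, 4.99, 4.53 and 5.40 below it, whereas mean Egr1 was 3.45, 0.833, 4.62 and 1.42 above and 0.668, 0.584, 0.636 and 0.524 below. In B-MF members both genes had been high, at 12.8 and 12.4 for Egr1 and 14.7 and 13.95 for Ier3, so the TAM cells above the threshold are high in Ier3 and are not called Egr1-Ier3-high here. By limma on the 4 differences within libraries, 320 of 6682 genes (4.79%) rose and 653 (9.77%) fell in the TAM cells above the threshold at an adjusted p of 0.05.

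Osteoclast genes were lower in the TAM cells above the threshold. The summed mean of 5 such genes was 21.9, 16.8, 24.6 and 13.6 in the cells below it against 2.54, 2.36, 1.60 and 0.844 in the cells above, and all 5 fell. The bone-resorbing protease gene Ctsk fell most (log2 difference -5.73, standard error 0.13, limma adjusted p = 2.9e-09, lower in 4 of 4 libraries). It was at 0 to 0.0556 above the threshold and passed the filter through the cells below it, at 5.53 to 8.77. Of the 5 genes, 2, 2, 2 and 3 were under 0.1 in the cells above the threshold in libraries 2 to 5, against 0 in the cells below it. Genes that passed the filter in this way had to be lower above the threshold, so their falls are no test of direction. The 12 neutrophil genes summed to 30.2, 26.8, 35.2 and 7.52 above the threshold and to 15.8, 27.7, 16.4 and 11.5 below it. In an alternative chosen after seeing these values, cells with a sum of 3 or more over the osteoclast genes were left out. This took cells from both sides, leaving 117, 24, 58 and 56 of the 162, 36, 73 and 64 cells above the threshold and 258, 108, 132 and 154 of the 370, 137, 165 and 189 below it. By limma, 69 genes then rose and 59 fell, 69 and 58 of them shared with the counts above. With the osteoclast-gene cells kept, the counts were 83 and 114 without library 2 and 335 and 612 without library 3. They were 145 and 239 without library 4 and 200 and 349 without library 5.

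The cytokine list held 13 genes, of which 8 were tested in TAM. Most of those tested rose in TAM cells above the threshold, and chemokine genes were divided. Of 8 genes on the list of IL-1, TNF and related factors, 6 rose and none fell; these were Il1a, Il1b, Il1rn, Il10, Tnf and Ptgs2, the last of which encodes an enzyme and not a cytokine, and of 17 AP-1 and other immediate-early genes 8 rose and none fell. Without the cells holding osteoclast genes, 5 of these 8 genes and 0 of the 17 early genes rose by limma, beside 69 of all 6588 genes tested. Without library 2 or 4 the early genes that rose were 1 or 2, beside 83 or 145 of all 6682. With no filter on low values 4 of 12 genes of the cytokine list rose, beside 166 of all 14274. Of 9 CXC chemokine genes 3 rose, Cxcl1, Cxcl2 and Cxcl3, and Cxcl9, an interferon-induced T-cell chemokine, fell by 1.74 (limma adjusted p = 0.00142); without library 4, 2 fell. Of 10 CC chemokine genes 4 rose and 2, Ccl8 and Ccl12, fell, Ccl8 by 2.30 (limma adjusted p = 0.0183); 2 rose without library 2 and 1 fell without library 4 or 5. With no filter on low values 1 CC chemokine gene rose and 0 fell, and without the cells holding osteoclast genes 3 rose and 1 fell. Of 14 NF-kB feedback genes 3 rose and none fell. Cxcl2 averaged 152, 120, 168 and 117 corrected counts per cell in these cells of libraries 2 to 5 and 33.1, 39.9, 41.1 and 45.1 in the others, a log2 difference of 1.80 (standard error 0.15, limma adjusted p = 0.000139). Il1b averaged 68.5, 51.4, 67.2 and 69.3 against 30.9, 25.7, 34.3 and 36.6 (1.01, adjusted p = 0.000688). The groups did not overlap for either gene. Ptgs2 averaged 7.09, 6.42, 10.0 and 8.59 against 1.82, 1.88, 2.84 and 2.40, the smallest limma p among the genes that rose (1.80, standard error 0.11, adjusted p = 2e-05). Tnf, which was low in B-MF, rose by 1.42 (adjusted p = 0.000139), Cxcl1 by 2.31 (adjusted p = 3.3e-05) and Osm by 1.35 (adjusted p = 0.000496), each in 4 of 4 libraries by limma. Without the cells holding osteoclast genes, Cxcl2, Il1b, Ptgs2, Tnf, Cxcl1 and Osm stayed past the threshold, at differences of 1.63, 0.85, 1.56, 1.19, 1.98 and 1.24.

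Of the genes that marked members in culture, 13 of the 16 higher ones were tested in TAM. Il1b, Cxcl2 and Nfkbiz rose and none fell, beside 320 (4.79%) of all 6682 genes that rose. By sign alone, 9 of the 13 were higher above the threshold. Nfkbiz rose by 0.97 (limma adjusted p = 0.0013). Nrg1 did not pass the test, with a TAM difference of -0.11 (standard error 0.17, adjusted p = 0.698), nor did Pf4 (0.31, standard error 0.35, adjusted p = 0.588), Nr4a1 (0.26, standard error 0.17, adjusted p = 0.334), Saa3 (0.32, standard error 0.19, adjusted p = 0.287) or Btg2 (0.09, standard error 0.14, adjusted p = 0.699), all by limma over 4 libraries. Of the 15 lower genes, 9 were tested, and 6 of these were lower above the threshold by sign alone. Lpl, Kcnn4, Ccnd1 and Atp6v0d2 fell, beside 653 (9.77%) of all 6682 genes, and Mmp12 rose. Lpl averaged 0.0123, 0.0278, 0.0274 and 0.0469 corrected counts above the threshold against 0.654, 0.197, 0.533 and 0.423 below it (-2.03, limma adjusted p = 0.000446). Lpl and Kcnn4 were below 0.1 above the threshold in all 4 libraries, and Atp6v0d2 and Ccnd1 in 3 of them, so these genes passed the filter, a mean of 0.1 over all gated cells, only through the cells below the threshold and had to be lower above it; their falls are no support for the same direction in culture. Without the cells holding osteoclast genes, Lpl, Kcnn4 and Atp6v0d2 were below the filter on low values, and Ccnd1 no longer passed the test (-0.40, adjusted p = 0.398). Ccnd1 also missed the threshold without library 2 (-0.62, adjusted p = 0.0662), without library 4 (-1.03, adjusted p = 0.0506) and with no filter on low values (adjusted p = 0.127), all by limma.

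Some genes went in opposite directions in culture and tumor. The cells compared were not alike in monocyte genes. In TAM libraries 2 to 5, the 5 monocyte genes summed to 21.1, 24.6, 20.45 and 28.5 above the threshold. Below it they summed to 19.5, 28.6, 26.0 and 28.1. In B-MF the sums were 0.098 and 0.079 in members and 0.059 and 0.060 in the other cells. The part of this in the opposite directions was not tested. Mmp12 averaged 3.25, 1.64, 7.64 and 2.0 corrected counts in TAM cells above the threshold against 3.04, 0.307, 1.04 and 0.984 in the others, a rise of 1.48 (standard error 0.34, limma adjusted p = 0.0201) where B-MF members had -2.28 and -2.13. This call was lost without library 4 (1.05, adjusted p = 0.0762), without the cells holding osteoclast genes (0.83, adjusted p = 0.204), with a threshold of 10 (1.32, adjusted p = 0.0635), without the gate (0.32, adjusted p = 0.0834) and with no filter on low values (adjusted p = 0.155), each time by limma. The complement genes fell in TAM: C1qa averaged 1.49, 0.111, 0.767 and 0.203 above the threshold against 10.2, 3.92, 3.50 and 4.96 below it (-3.26, standard error 0.31, limma adjusted p = 0.000291), and C1qb and C1qc fell by 3.23 and 3.19. Without the cells holding osteoclast genes they still fell, by 2.25, 2.28 and 2.08 for C1qa, C1qb and C1qc. In B-MF members, C1qa had been higher by 1.05 and 0.95. Cd9 rose in TAM by 0.92 (limma adjusted p = 0.0016, 4 of 4 libraries) and had been lower in B-MF members, and Ccl12 fell by 1.15 in TAM (limma adjusted p = 0.00564; 0.0569 with a threshold of 10 and 0.0662 with no filter on low values) and had been higher. Of the glycolysis and hypoxia genes, 10 of 16 rose in TAM and none fell, whereas 10 of 14 had been lower in B-MF members. Without the cells holding osteoclast genes 2 of the 16 rose, beside 69 of all 6588 genes tested. With any 1 library left out 3 to 6 rose, beside 83 to 335 of all 6682. Whether these differences differ between B-MF and TAM was not tested.

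**Figure D4:**
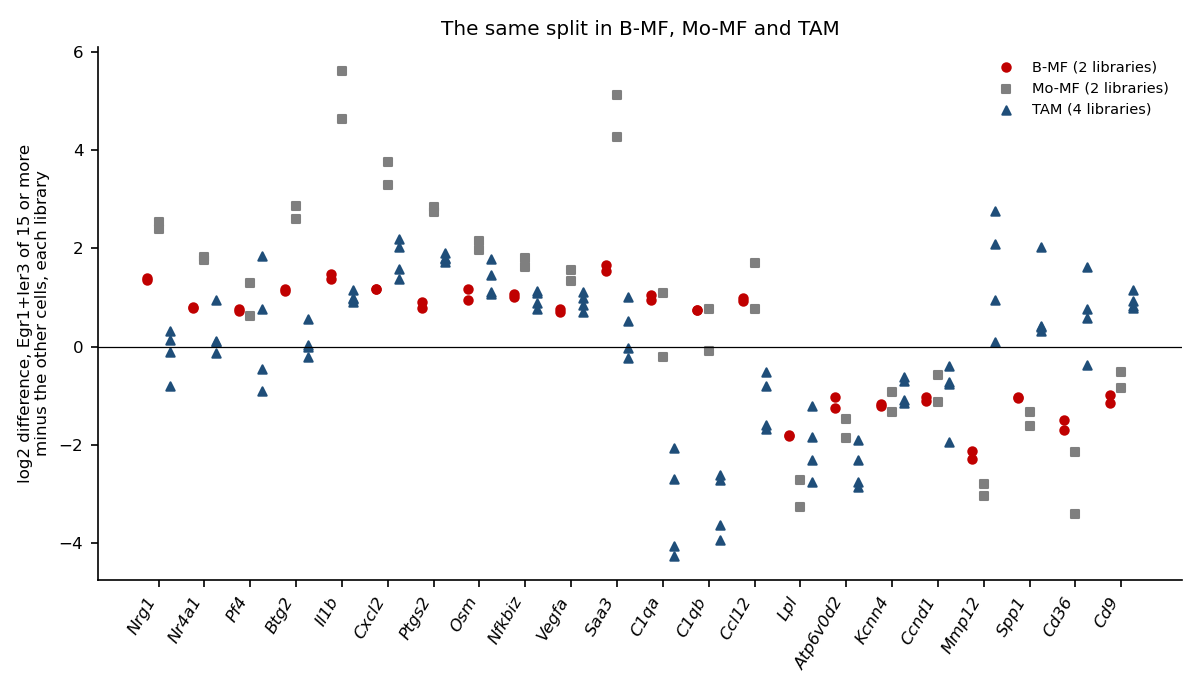
Log2 difference between cells with Egr1 plus Ier3 of 15 or more and the other cells of the same library (vertical axis) for 22 genes in B-MF (2 libraries, circles), Mo-MF (2 libraries, squares) and TAM (4 libraries, triangles). Il1b, Cxcl2, Ptgs2, Osm, Nfkbiz and Vegfa lie above 0 in all libraries and Lpl, Atp6v0d2, Kcnn4 and Ccnd1 below 0 in all, while C1qa, C1qb, Mmp12 and Cd9 lie on opposite sides in B-MF and TAM. In TAM, Lpl, Atp6v0d2, Kcnn4 and Ccnd1 passed the filter only through the cells below the threshold. Their places there are therefore no support for a shared direction.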

How the data were processed

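The scRNA-seq values were made by the authors with Cell Ranger, a minimum of 1000 detected genes per cell and SCTransform, and are deposited as ln(1 + corrected count), a natural log. For ATAC-seq (BWA, mm10), the authors called peaks with MACS2 in each library, and the deposited fold enrichment is a ratio over local background. Uncorrected counts were not analysed here, so no count model was fitted; values were converted back to corrected counts and averaged over cells per library. Libraries, not cells, were the replicates. The members and gene lists were chosen with earlier results of these data known. The division of B-MF was described only; for TAM (at least 20 cells on each side) and for B-MF minus Mo-MF, within-library differences of log2(mean + 0.1) were tested by limma (lmFit and eBayes) where a gene's mean reached 0.1, adjusted by Benjamini-Hochberg over all genes tested. The limma code was tested on simulated data. Named genes were the marker genes, up to 4 genes a list with the largest differences, the 15 most positive and 10 most negative genes outside the lists, and the 5 of smallest p in each direction of each test; some further list members (Fos, Junb, Jun, Csf1r, Adgre1, Cd68, Cxcl3, Cxcl9, Cxcl14, Ccl8, Il1a, Il1rn, Il10, Mmp8, Slc40a1) were named after their values were seen. Gene starts for peaks were from GENCODE and promoter sequences from RefSeq (GRCm38.p6). No doublet caller was run, and the pooled peak list was not used. Alternatives were other thresholds (10 and 25), a pseudocount of 0.5, no filter, equal totals, cells of at most 15% mitochondrial transcripts, no gate, a replicate block and each library left out; 2 more, a macrophage gate in B-MF and TAM without osteoclast-gene cells, were chosen after seeing the data. Computations used Python 3.11.15, numpy 2.4.6, pandas 2.3.3, scipy 1.17.1, R 4.3.3 and limma 3.58.1.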

Additional observations from a re-analysis of the deposited data

Results flagged for a closer look

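Among 39 named genes examined in TAM, 3 had 1 library far from the other 3 in the log2 difference between cells above and below the threshold, by Dixon's test; chance alone sets 1 group in 20 apart in this way. For Spp1 the difference was 2.02 in library 4 against 0.309 to 0.427 in the others. Fabp4 had 2.48 in library 5, where its mean was 0.0106 corrected counts in the other cells, against -1.16 to -0.759, and without that library it fell by 1.02 on the log2 scale (limma adjusted p = 0.00706). Pltp had -2.43 in library 3 against -1.42 to -1.22, and it fell with or without that library.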

How the results depend on the processing

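In B-MF, the fold rule found 5 higher and 6 lower genes with a pseudocount of 0.5, and 25 lower genes with a threshold of 25; leaving out a replicate gave 20 to 23 higher and 16 to 21 lower genes, and none of these 16 and 15 genes turned its direction under any setting. In TAM, 166 genes rose and 291 fell with no filter on low values, 1269 and 2594 without the macrophage gate, and 69 and 59 without osteoclast-gene cells, where Acp5 turned from -3.03 to 0.13 (adjusted p = 0.721), the gene itself being part of that filter. Leaving out 1 TAM library gave 83 to 335 genes that rose and 114 to 612 that fell, and Cebpb, Clec4n, Zfp36, Mmp12 and Ccnd1 lost their calls in at least 1 of these. A threshold of 25 gave no TAM value, since it left too few cells in all but library 2. For B-MF minus Mo-MF, the larger and smaller differences numbered 1 and 13 with a threshold of 10, 2 and 4 with a pseudocount of 0.5, 0 and 2 with no filter, 3942 and 1254 with no macrophage gate, and 0 to 2888 and 8 to 2489 with 1 library left out. The upper ends came from leaving out a Mo-MF library; in each such fit the lone library of a culture is assumed to vary like the other culture. With the replicate number as a block there were 21 and 62, but the numbers did not pair the libraries (correlation of deviations 0.03 over genes, 2 pairs). The causes of these changes were not tested. Corrected counts carry no sequencing depth, so counting error of single genes was not estimated; 49 and 60 Mo-MF cells and 36 to 162 TAM cells above the threshold limit the precision there.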

Other observations

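Lists not yet described had small median differences between Egr1-Ier3-high and other B-MF cells, while single genes such as Atp6v0d2 and Clec4n differed by more. Of 11 heat shock chaperone genes, 7 were lower and 3 higher in both libraries (median log2 difference -0.14 and -0.16), and of 13 mitochondrially encoded genes 10 were lower and 3 higher (-0.14 and -0.06). In TAM, 9 of these 13 fell by limma and none rose, beside 653 of all 6682 genes that fell. Without osteoclast-gene cells 0 of the 13 fell, beside 59 of all 6588, and without library 2 1 did, beside 114 of all 6682. Among 16 lysosomal and cathepsin genes, 7 were higher and 9 lower in both libraries: Ctsl, a cathepsin gene, averaged 106 and 103 corrected counts per cell in members against 151 and 147, and Hexa, a lysosomal hydrolase gene, 32.6 in both against 26.8 and 27.2. Atp6v0d2, a subunit gene of the proton pump, averaged 1.82 and 2.09 against 4.48 and 4.33. Of 10 cell-cycle brake genes, 6 were higher and 3 lower; Cdkn1a averaged 11.4 and 10.8 in members against 7.96 and 7.71, whereas Cdkn2a averaged 0.207 and 0.179 against 0.406 and 0.313. Of 10 scavenger and uptake receptor genes, 5 were higher and 5 lower, with Clec4n, an innate receptor gene, at 9.92 and 9.22 against 4.64 and 4.58 and Cd36 on the other side. No gene of the dendritic cell, T and NK cell, fibroblast, or mast cell and basophil lists passed the filter in B-MF. Only 4 of 7 dendritic cell genes and 2 of 5 T and NK cell genes had values in the cultured cells.

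In the MHC class II-high cells that the rule set aside, mean Ier3 was 13.7 and 12.6 corrected counts per cell in replicates 1 and 2, against 7.91 and 7.23 in all cells that met the other criteria, and mean Egr1 was 8.05 and 8.09 against 7.61 and 7.14.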
